A study of Mus musculus with 15 samples.

Results

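The genes described here are 10 immediate early genes, read in polyadenylated RNA of bone marrow cells, depleted of mature lineages, from mice that had received a second transplant of mutant or wild-type stem cells. They are the AP-1 subunit genes Fos, Fosb, Jun and Junb, the transcription regulators Egr1, Nr4a1, Atf3 and Ier2, and the feedback regulators Dusp1 and Zfp36. They were chosen by name, with earlier results of these data known, and all 10 were matched by symbol to identifiers of the deposited count table, which lists 45706 genes. All 10 also passed the filter on low counts that left 18983 genes for testing, each of them with at least 196 reads in every library. The series holds 15 libraries of 4 genotypes: WT (3 libraries), Puma-/- (4), G3 mTerc-/-Puma+/+ (4) and G3 mTerc-/-Puma-/- (4). G3 denotes the third generation of mice bred without mTerc, the RNA template of telomerase, and Puma is the gene of a death-promoting BH3-only protein that the mouse annotation lists as Bbc3. All mutations are germline deletions on a C57BL/6J background, and the WT and Puma-/- donors carried intact mTerc. Donor stem and progenitor cells were passaged through lethally irradiated CD45.1 hosts, and marrow of the femur of the second hosts was depleted of cells with lineage markers on magnetic columns. RNA of any surviving host cells was not separated from that of donor cells, the labels give no ages, and they do not say that each library is a separate animal, so that p-values measure the spread between these libraries.

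Immediate early genes are transcribed within minutes of a stimulus from transcription factors already present in the cell, without new protein synthesis, and their short-lived transcripts decay soon afterwards. Growth factors, cytokines, cell adhesion and stress reach them through MAP kinase cascades and through SRF, ternary complex factors and CREB bound at their promoters. FOS and JUN proteins pair through leucine zippers into the AP-1 factor, which binds TGA-repeat motifs in the promoters and enhancers of other genes. In haematopoietic cells these genes respond to cytokines and to differentiation signals, and in many tissues they are also known to rise while cells are isolated and handled. DUSP1 dephosphorylates MAP kinases, and ZFP36 (tristetraprolin) binds AU-rich elements in 3'UTRs and recruits the deadenylation machinery, so that both act as brakes on the same response.

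Each library held between 102790519 and 158367059 counts (median 112046464), so that counting error was small beside the spread between libraries. Levels are given as CPM (counts scaled to a library of equal size) scaled with TMM factors over all 15 libraries. Fold changes come from edgeR's quasi-likelihood test on 14 libraries, without replicate 2 of G3 mTerc-/-Puma-/-, which the study leaves out of its heatmaps without giving a reason. That library stood apart here as well, with summed erythroid markers at 1050.1 CPM beside 212 to 337 in the other libraries and summed monocyte markers at 212 beside 1929 to 2842. The targeted gene Bbc3 lay between 5.04 and 6.83 CPM in the 4 Puma-/- libraries, at 9.71 to 23.6 in WT and at 13.5 to 17.1 in the libraries with the label G3 mTerc-/-Puma-/-, so that the labelled loss of Puma showed in the former and not in the latter. Terc, which lacks a poly(A) tail, was at or below 0.00984 CPM in mTerc-/- libraries and at least at 0.0356 in the others, so that this check rests on few reads per library. The Puma-/- libraries held Xist at 466 to 868 CPM and Ddx3y, a Y-linked gene, at 0.0448 or less. Ddx3y lay at 42.8 to 48.3 CPM in G3 mTerc-/-Puma+/+, with Xist at 40.4, 0.177, 89.0 and 50.8, so that 3 of these libraries held both. The levels of Ddx3y did not overlap between these groups, and sex and genotype cannot be told apart in that comparison. Ddx3y was at 21.3, 26.5 and 43.2 CPM in WT and at 2.88, 38.9, 46.0 and 4.27 in the libraries with the label G3 mTerc-/-Puma-/-. Every Puma-/- library thus lay below both groups in Ddx3y. The same limit holds for Puma-/- minus WT, for G3 mTerc-/-Puma-/- minus Puma-/- and for the interaction, which takes in the Puma-/- libraries. Eif2s3y, also Y-linked, was at 3.14, 6.52, 6.72 and 7.67 CPM in the libraries with the label G3 mTerc-/-Puma-/-. It was at 24.2 to 62.4 in WT and at 47.0 to 53.2 in G3 mTerc-/-Puma+/+, without overlap. In the 14 libraries of the fit Kdm5d did not overlap either, while Ddx3y and Uty did. By Eif2s3y and Kdm5d the limit thus reaches G3 mTerc-/-Puma-/- minus WT and minus G3 mTerc-/-Puma+/+ as well. Xist was mixed in WT and in the libraries with the label G3 mTerc-/-Puma-/-, from 1.73 to 418 and from 0.388 to 663 CPM.

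Most of the 10 genes are short. The coding transcript used for each (the longest coding sequence in GENCODE vM21) spanned a median of 3427 bases with 3 exons, beside 21364 bases and 9 exons over the 14559 protein-coding genes tested, and all 10 lay under that median span. Nr4a1, with 8 exons over 20527 bases, was close to the medians of all genes, and Atf3 spanned 13045 bases. Several also share sequence elements around the start and in the 3'UTR. To show these, the 250 bases before the RefSeq transcription start are printed for Fos, Jun, Nr4a1, Atf3 and Dusp1 (GRCm38.p6), 5′ to 3′ on the strand of the gene. For Dusp1 the last 47 bases, which another transcript includes as exon, are left out. Of the 10 genes, 8 had a window in the table used, and Egr1 and Ier2 were not analysed here. Capitals mark TGACG on either strand (the core of the CREB site TGACGTCA), TGACNTCA, GCGNGGGCG (the EGR site) and the CArG box bound by SRF.
Fos: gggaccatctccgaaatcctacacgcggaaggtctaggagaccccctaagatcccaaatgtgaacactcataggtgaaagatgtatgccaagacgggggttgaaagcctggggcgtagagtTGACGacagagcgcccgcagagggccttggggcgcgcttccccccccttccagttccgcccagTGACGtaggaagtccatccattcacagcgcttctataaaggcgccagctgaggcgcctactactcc
Jun: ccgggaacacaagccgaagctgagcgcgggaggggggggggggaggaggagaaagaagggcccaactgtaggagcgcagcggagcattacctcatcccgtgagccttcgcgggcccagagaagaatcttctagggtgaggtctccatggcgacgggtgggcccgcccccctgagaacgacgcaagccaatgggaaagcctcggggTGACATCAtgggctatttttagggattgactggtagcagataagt
Nr4a1: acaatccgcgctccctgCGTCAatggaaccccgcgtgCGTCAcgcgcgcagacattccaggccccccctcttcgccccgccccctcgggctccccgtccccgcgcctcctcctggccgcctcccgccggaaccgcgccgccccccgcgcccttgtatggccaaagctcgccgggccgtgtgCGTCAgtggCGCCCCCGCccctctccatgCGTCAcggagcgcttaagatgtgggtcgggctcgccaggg
Atf3: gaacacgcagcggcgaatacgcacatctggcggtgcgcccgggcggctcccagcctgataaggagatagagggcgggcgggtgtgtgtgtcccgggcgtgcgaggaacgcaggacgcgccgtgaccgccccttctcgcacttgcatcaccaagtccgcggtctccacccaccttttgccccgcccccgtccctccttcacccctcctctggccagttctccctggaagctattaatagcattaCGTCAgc
Dusp1: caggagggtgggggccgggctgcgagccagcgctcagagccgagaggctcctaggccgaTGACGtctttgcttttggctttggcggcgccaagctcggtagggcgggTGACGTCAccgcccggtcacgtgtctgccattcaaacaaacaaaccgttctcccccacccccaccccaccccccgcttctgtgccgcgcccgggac
The window of Fos is chr12:85473640-85473889 (+ strand), that of Jun chr4:95052223-95052472 (- strand), that of Nr4a1 chr15:101266596-101266845 (+ strand), that of Atf3 chr1:191183334-191183583 (- strand) and that of Dusp1 chr17:26508520-26508722 (- strand). Positions here count back from the start, the base before it being -1.

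TGACG or its reverse complement was found in 6 of the 8 windows (Fos, Fosb, Junb, Nr4a1, Atf3 and Dusp1), beside 17.8% of 32851 windows of 27025 genes searched in the same way. All windows were taken, without a match to the members in expression or base content, so that these shares are a description. Fos held it at -129 and -66, Nr4a1 4 times between -233 and -36, Atf3 at -7, and Dusp1 at -191 and within the full TGACGTCA at -143, an 8-base palindrome found in 1.55% of all windows. Jun held TGACATCA at -45, which matches TGACNTCA (7.49% of all windows, Jun and Dusp1 among the 8; each TGACGTCA is also counted here and under TGACG). GCGNGGGCG was found in Fosb, Nr4a1 and Zfp36 (4.70% of all windows), a CArG box in Zfp36 (1.47%), and TGANTCA, the AP-1 site itself, in none of the 8 (6.75%). For the other members with a match, the site is shown with its flanks, in the same notation.
Fosb, -64 to -38: cgggTGACGcaagcGCGGGGGCGggtc
Junb, -117 to -91: cttcctgacagTGACGcgagccgcctc
Zfp36, -114 to -88: agctacgccGCGGGGGCGcgtcccgga
Zfp36, -67 to -40: caggccgccCCATAAAAGGagaaagctc
These lie at chr7:19310083-19310109, chr8:84978839-84978865, chr7:28379316-28379342 and chr7:28379268-28379295, all on the - strand of GRCm38.p6. The windows follow RefSeq starts, and GENCODE places some starts elsewhere. Of the Atf3 window 7 bases are exon in GENCODE, and the Zfp36 sites lie within the GENCODE gene of Zfp36. A match is a run of letters and not a measured binding site, and a window without one says nothing of the factor, since known elements of several of these genes lie farther from the start.

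At the other end of the transcript, 6 of the 10 members held TATTTAT, a core of the AU-rich elements that ZFP36 binds, in the 3'UTR, beside 25.9% of all protein-coding genes tested and 26.6% of the 6602 whose 3'UTR was as long as those of the members (485 to 2145 bases). Dusp1 and Zfp36 had 3 copies and Fos 2, beside 7.15% of those 6602 genes with 2 or more. Fosb, Jun and Atf3 had 1 each, and Junb, Egr1, Nr4a1 and Ier2 none. The copy nearest the stop codon is shown with 8 bases on either side, TATTTAT in capitals, from GENCODE vM21 transcripts.
Fos: tttcaattTATTTATtaagatgg
Fosb: cccccagcTATTTATccctttcc
Jun: cttgtgcaTATTTATaatagcgt
Atf3: atattactTATTTATcccagtat
Dusp1: ctggtcctTATTTATttaacacc
Zfp36: gggcccttTATTTATgacgactt
The site of Fos is chr12:85477106-85477128 (+ strand) and that of Zfp36 chr7:28376969-28376991 (- strand).

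Across genotypes, the data gave no member with a change that passed the test, and a wide and shared variation between libraries of the same genotype. The libraries WT replicate 1, WT replicate 3 and replicate 1 of those with the label G3 mTerc-/-Puma-/- held the 3 highest levels of 9 members, and for Egr1 WT replicate 3 gave way to Puma-/- replicate 2. At the other end, replicate 2 of the libraries with the label G3 mTerc-/-Puma-/- was lowest for 7 members and G3 mTerc-/-Puma+/+ replicate 1 for the remaining 3. The 10 genes together took 0.613%, 0.247% and 0.614% of the counts in the 3 WT libraries. Their share was 0.265% to 0.402% in Puma-/-, 0.182% to 0.420% in G3 mTerc-/-Puma+/+ and 0.162% to 0.625% in the libraries with the label G3 mTerc-/-Puma-/-. WT thus held both some of the highest shares and one of the lowest.

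**Figure D1:**
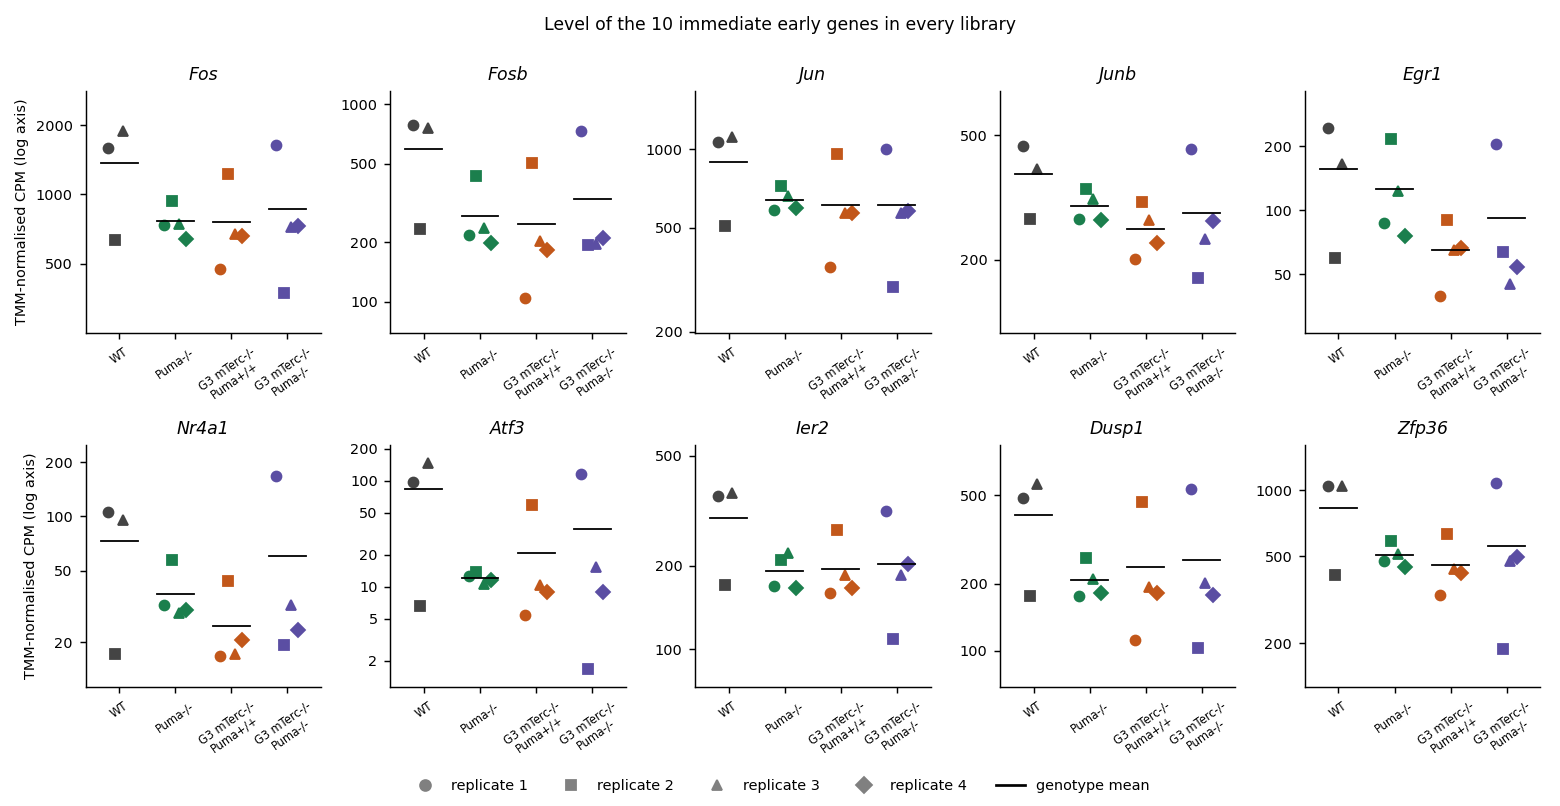
TMM-normalised CPM of the 10 immediate early genes on log axes, with a panel for each gene, a point for each of the 15 libraries (shape: replicate number) and a bar for the mean of each genotype. In the panel of Atf3 the WT libraries lie at 97.6, 6.58 and 145 CPM and the 4 Puma-/- libraries between 10.7 and 13.7.

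Among the AP-1 subunits, Fos (ENSMUSG00000021250, chromosome 12, 85473890 to 85477273, + strand of GRCm38) encodes the partner that needs a JUN protein to bind DNA. Its level was 1591, 632 and 1882 CPM in WT replicates 1 to 3, and 735, 934, 742 and 638 CPM in Puma-/- replicates 1 to 4. In G3 mTerc-/-Puma+/+ it was 471, 1231, 674 and 660.2 CPM, and in the libraries with the label G3 mTerc-/-Puma-/- 1641, 373, 723 and 728 CPM. WT replicates 1 and 3 lay above every library of the other genotypes except replicate 1 of G3 mTerc-/-Puma-/-, while WT replicate 2 lay below all of Puma-/-, so that the groups overlapped. WT averaged 1368 ± 654 CPM (SD, n = 3) and Puma-/- 762 ± 124 CPM (SD, n = 4). The averages of the other groups were 759 ± 328 CPM for G3 mTerc-/-Puma+/+ and 866 ± 542 CPM for G3 mTerc-/-Puma-/- (SD, n = 4 each). Fosb (ENSMUSG00000003545, chromosome 7, 19302696 to 19310051, - strand), a paralogue of Fos, was at 782, 235 and 760.4 CPM in WT and at 219, 435, 237 and 199 in Puma-/-. It was at 104, 507, 204 and 182 CPM in G3 mTerc-/-Puma+/+ and at 732, 193, 196 and 211 in the libraries with the label G3 mTerc-/-Puma-/-. The same libraries were high as for Fos and the groups overlapped.

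Jun (ENSMUSG00000052684, chromosome 4, 95049034 to 95052222, - strand), which can form AP-1 alone or with FOS proteins, was at 1065, 506 and 1115 CPM in WT and at 585, 721, 661 and 596 in Puma-/-. Its levels were 355, 958, 567 and 569 CPM in G3 mTerc-/-Puma+/+ and 1004, 296, 569 and 579 in the libraries with the label G3 mTerc-/-Puma-/-. Junb (ENSMUSG00000052837, chromosome 8, 84974484 to 84978718, - strand), a JUN paralogue known as a restraint on growth of myeloid progenitors, varied least of the 10. It stood at 462, 270.4 and 391 CPM in WT, and at 269.6, 336, 312 and 269 in Puma-/-. In G3 mTerc-/-Puma+/+ it lay at 202, 305, 269 and 226 CPM, and in the libraries with the label G3 mTerc-/-Puma-/- at 451, 175, 233 and 267. For Jun, all G3 mTerc-/-Puma+/+ libraries but replicate 1 lay above WT replicate 2. For Junb, all but replicate 2 lay below WT replicate 2. Of the exonic bases of Jun, 7.28% are shared with the antisense gene Junos and 7.52% of those of Junb with Prdx2 on the opposite strand. Since the strand setting of the counting is not given in the sources used here, reads in those bases may not be told apart.

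Of the other transcription regulators, Egr1 (ENSMUSG00000038418, chromosome 18, 34859823 to 34864984, + strand) encodes a zinc finger factor induced by growth factors through SRF. Its level was 244, 59.7 and 165 CPM in WT and 86.9, 217, 123 and 75.6 in Puma-/-. It was 39.5, 90.0, 64.9 and 66.4 CPM in G3 mTerc-/-Puma+/+ and 205, 63.7, 44.8 and 54.1 in the libraries with the label G3 mTerc-/-Puma-/-. Egr1 differed from the rest in that Puma-/- replicate 2 was second only to WT replicate 1. Nr4a1 (ENSMUSG00000023034, chromosome 15, 101254269 to 101274795, + strand), the orphan nuclear receptor NUR77, was at 106, 17.2 and 95.6 CPM in WT and at 32.1, 57.1, 29.1 and 30.2 in Puma-/-. In G3 mTerc-/-Puma+/+ it stood at 16.8, 44.0, 17.2 and 20.5 CPM, and in the libraries with the label G3 mTerc-/-Puma-/- at 167, 19.2, 32.3 and 23.4. All 4 Puma-/- libraries lay above WT replicate 2 and below WT replicates 1 and 3.

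Atf3 (ENSMUSG00000026628, chromosome 1, 191170296 to 191218039, - strand), a stress-induced bZIP factor, had the widest range of the 10. It was at 97.6, 6.58 and 145 CPM in WT, and at 12.5, 13.7, 10.7 and 11.7 in Puma-/-. The values were 5.36, 58.4, 10.4 and 8.88 CPM in G3 mTerc-/-Puma+/+ and 115, 1.69, 15.5 and 8.97 in the libraries with the label G3 mTerc-/-Puma-/-. Its highest library held 86.2 times the level of its lowest, and within WT alone the ratio was 22.1, within G3 mTerc-/-Puma+/+ 10.9, within Puma-/- 1.28 and within G3 mTerc-/-Puma-/- 68.2. WT averaged 83.2 ± 70.5 CPM (SD, n = 3) and Puma-/- 12.2 ± 1.27 CPM (SD, n = 4). The averages of the other groups were 20.8 ± 25.2 CPM for G3 mTerc-/-Puma+/+ and 35.3 ± 53.5 CPM for G3 mTerc-/-Puma-/- (SD, n = 4 each). The narrow range in Puma-/- lay inside the range of each of the other genotypes. Ier2 (ENSMUSG00000053560, chromosome 8, 84661331 to 84662852, - strand), a small nuclear protein gene without introns, was at 357, 171 and 366 CPM in WT and at 169, 211, 222 and 166 in Puma-/-. It was at 159, 269.9, 185 and 166 CPM in G3 mTerc-/-Puma+/+ and at 315, 109, 186 and 203 in the libraries with the label G3 mTerc-/-Puma-/-. Here too WT replicate 2 lay among the values of the mutants.

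Among the feedback regulators, Dusp1 (ENSMUSG00000024190, chromosome 17, 26505590 to 26562128, - strand) was at 485, 176 and 559.8 CPM in WT and at 177, 262, 210.5 and 182 in Puma-/-. Its levels in G3 mTerc-/-Puma+/+ were 112, 463, 193 and 182 CPM, and in the libraries with the label G3 mTerc-/-Puma-/- 534, 103, 202 and 179. G3 mTerc-/-Puma+/+ replicate 2 came close to the 3 highest libraries for this gene. Zfp36 (ENSMUSG00000044786, chromosome 7, 28376784 to 28380253, - strand) was at 1038, 411 and 1046 CPM in WT and at 477, 588, 509 and 444 in Puma-/-. It lay at 332, 631, 436 and 419 CPM in G3 mTerc-/-Puma+/+ and at 1072, 189, 477 and 493 in the libraries with the label G3 mTerc-/-Puma-/-. The brakes of the response were thus high in the same libraries as the AP-1 subunits.

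Per kilobase of exon, the mean level over the 15 libraries was ordered from Fos (387 CPM per kb) through Jun (212), Zfp36 (165), Ier2 (143), Junb (129), Dusp1 (80.9), Fosb (55.5), Egr1 (23.8) and Atf3 (16.2) to Nr4a1 (13.4). Neighbours in this order kept it in 15 of 15 libraries for Fos over Jun, Jun over Zfp36, Dusp1 over Fosb and Fosb over Egr1, and in 14 for Junb over Dusp1. The order was less firm for Zfp36 over Ier2 (13 of 15), Egr1 over Atf3 (12) and Ier2 over Junb (10). Atf3 exceeded Nr4a1 in 4 of 15 libraries, although its mean was higher, so that this pair had no firm order. Of the 4 AP-1 subunits, Fos had the highest level per kilobase and Fosb the lowest mean.

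The spread within genotypes was large for most members beside that of other genes. Pooled over the 4 genotypes, the standard deviation of log2 CPM within a genotype was 1.84 for Atf3, above 99.2% of the genes tested, 1.06 for Nr4a1, 0.86 for Fosb, 0.81 for Egr1 and 0.79 for Dusp1, beside a median of 0.28 over all genes. Fos and Zfp36 were at 0.67, Jun at 0.56, Ier2 at 0.47 and Junb at 0.38. The genotype accounted for 17.2% (Jun) to 28.4% (Egr1) of the variance of a member over the 15 libraries, beside a median of 22.1% over all genes tested. The share of variance that followed the genotype was thus near that of other genes, while the spread within genotypes was above their median for all 10. Within Puma-/- the ratio of the highest to the lowest library ran from 1.23 (Jun) to 2.87 (Egr1), beside a median of 1.37 over all genes. In WT the same ratio ran from 1.71 (Junb) to 22.1 (Atf3), beside a median of 1.28.

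**Figure D2:**
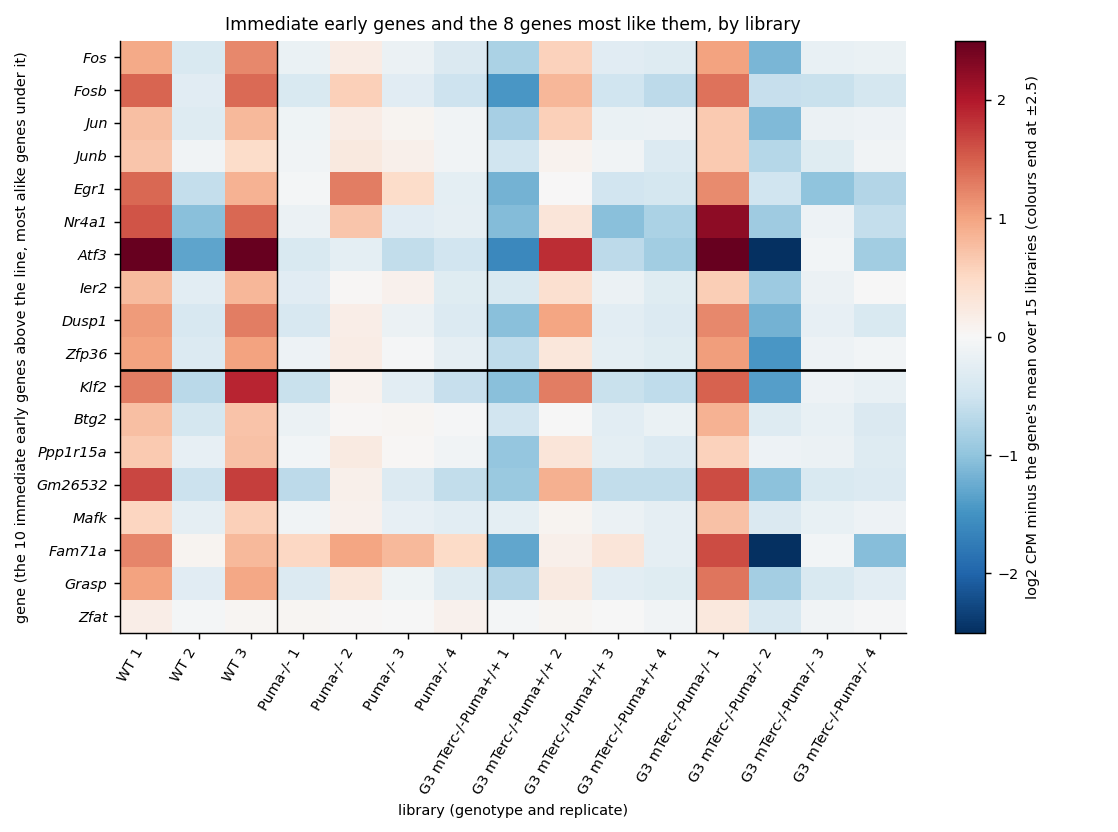
Log2 CPM minus the mean of each gene over the 15 libraries (columns, by genotype), for the 10 immediate early genes above the line and the 8 genes most like them under it; red is above the mean of the gene and blue below. WT replicates 1 and 3 and replicate 1 of G3 mTerc-/-Puma-/- are red for the 10 genes above the line, and WT replicate 2 is blue for these genes.

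The members varied together. Over the 45 pairs, Spearman's rho across the 15 libraries had a median of 0.87, from 0.69 (Egr1 and Ier2) to 0.98 (Fos and Zfp36). These points share libraries and scaling, and the values are given as a description. Taken against the mean of the 10 scaled log2 levels, 13040 other genes with a mean of at least 1 CPM had a median rho of 0.02, and 28 of them (0.215%) had a rho of at least 0.8. The 8 most alike were Klf2 (0.921), Btg2 (0.918), Ppp1r15a (0.875), Gm26532 (0.871), Mafk (0.868), Fam71a (0.868), Grasp (0.861) and Zfat (0.854). Klf2, a Krüppel-like factor of lymphocyte and endothelial quiescence, Btg2, an antiproliferative gene, and Ppp1r15a, which encodes the phosphatase subunit GADD34, are immediate early genes of the companion list. Mafk encodes a small MAF partner of bZIP factors.

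Klf2 was at 184, 47.7 and 283 CPM in WT, at 50.7 to 80.3 in Puma-/-, at 36.6, 183, 51.5 and 48.6 in G3 mTerc-/-Puma+/+, and at 212, 29.4, 69.0 and 66.7 in the libraries with the label G3 mTerc-/-Puma-/-. Fam71a lies 5.5 kb beyond the 3′ end of Atf3 on chromosome 1. Grasp lies 21.5 kb before the GENCODE start of the Nr4a1 gene (101254269) on chromosome 15. The RefSeq start used for the printed window of Nr4a1 lies farther on, within that gene. The other genes of the 8 lay at least 451.7 kb from any member or on another chromosome. Grasp was at 9.45, 3.88 and 9.29 CPM in WT and from 3.71 to 5.73 in Puma-/-, with its highest value, 11.9, in replicate 1 of those with the label G3 mTerc-/-Puma-/-. Without WT replicate 1 and replicate 1 of G3 mTerc-/-Puma-/-, the libraries farthest from the median, Pearson's r over the remaining libraries was 0.951 for Klf2, 0.981 for Grasp and 0.641 for Zfat. Zfat, which ran only from 6.55 to 10.4 CPM, was the least like the members on this scale.

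Against WT, all 10 members were below 0 in Puma-/-, and 0 of 10 passed the test. The median log2 fold change was -0.78, beside 0.0048 over all 18983 genes tested. Values ran from -2.77 for Atf3 (SE 1.02, adjusted p = 0.424) to -0.32 for Egr1 (SE 0.554, adjusted p = 0.873). Fos stood at -0.84 (SE 0.388, adjusted p = 0.488), Fosb at -1.12 (SE 0.578), Dusp1 at -0.97 (SE 0.488) and Zfp36 at -0.72 (SE 0.333). In edgeR's quasi-likelihood test 4 members (Fos, Atf3, Ier2 and Zfp36) had an unadjusted p under 0.05, and DESeq2 and limma-voom also called 0 of 10. Over all genes, 0.0790% were called and 10.1% had an unadjusted p under 0.05. The groups overlapped for every member, beside 9.70% of all genes whose groups did not, and the exact permutation p, two-sided, lay between 0.171 and 0.743, where the design allows no less than 0.0571. Leaving out WT replicate 2 moved the median to -1.12 and leaving out WT replicate 3 to -0.53, and without WT replicate 1 Egr1 was at 0.15. Each setting kept WT replicate 1 or WT replicate 3, where the members were high, and none left out both. Whether the direction against WT holds without both was not tested.

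In G3 mTerc-/-Puma+/+ minus WT, which shares the WT libraries with the comparison before, all 10 members again had values below 0 and 0 of 10 passed. The median was -0.86, beside 0.018 over all genes. The values ran from -2.0 for Atf3 (SE 1.0) and -1.57 for Nr4a1 (SE 0.668) to -0.55 for Jun (SE 0.317), each with an adjusted p of 0.998. Unadjusted, 7 members had a p under 0.05 (all but Jun, Atf3 and Dusp1) in edgeR's quasi-likelihood test, DESeq2 and limma-voom called 0, and 3.86% of all genes had such a p while 0.0369% were called. Groups overlapped for all 10, beside 4.07% of all genes whose groups did not, and the exact permutation p lay between 0.114 and 0.343. Without G3 mTerc-/-Puma+/+ replicate 2 the median was -1.26, and without WT replicate 3 it was -0.61.

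For the libraries with the label G3 mTerc-/-Puma-/- minus WT, 9 of 10 members were below 0 and 0 passed, with a median of -0.38, beside 9.8e-05 over all genes. Atf3 was at -0.84 (SE 1.07), Fosb at -0.64 (SE 0.624) and Egr1 at -0.63 (SE 0.597), while Nr4a1 stood at 0.029 (SE 0.713), all with an adjusted p of 1.0 in edgeR's test. None had an unadjusted p under 0.05, beside 5.45% of all genes, of which 0.0632% were called, and DESeq2 and limma-voom called 0. No member had groups apart, beside 8.51% of all genes, and the exact permutation p lay between 0.200 and 1.0 with a lowest possible value of 0.1. The median was -1.01 without replicate 1 of G3 mTerc-/-Puma-/-, -0.62 with all 15 libraries and -0.15 without WT replicate 3.

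**Figure D3:**
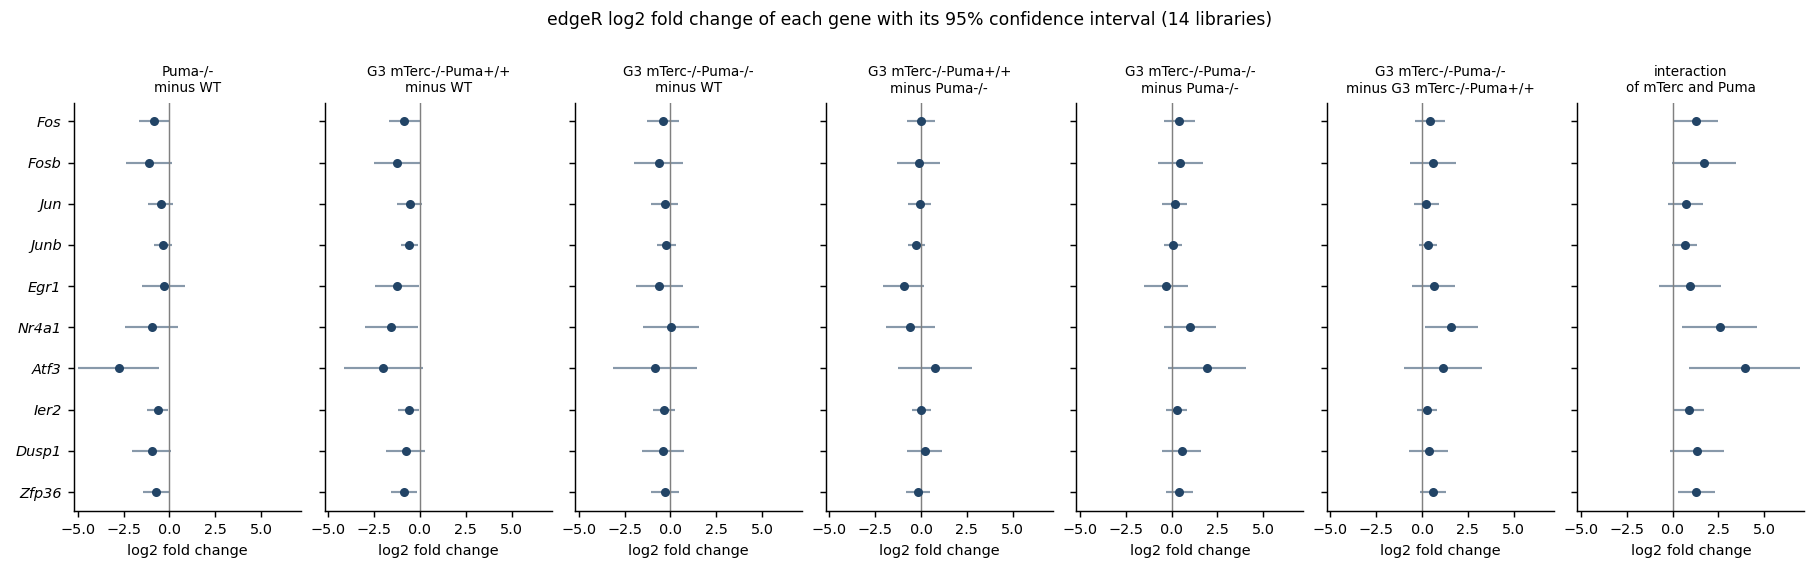
edgeR log2 fold change (points) of each of the 10 genes in 7 comparisons over 14 libraries, with the 95% confidence interval as a line. In Puma-/- minus WT and in G3 mTerc-/-Puma+/+ minus WT all 10 points lie below 0, and the intervals are widest for Atf3.

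The comparisons between mutants take no WT level, although the WT libraries share in the estimate of the spread. In G3 mTerc-/-Puma+/+ minus Puma-/-, 7 of 10 were below 0 with a median of -0.096, beside -0.00049 over all genes, and 0 passed in edgeR's test, in DESeq2 or in limma-voom. Egr1 had the lowest value, -0.95 (SE 0.520, adjusted p = 0.370), and Atf3 the highest, 0.77 (SE 0.933, adjusted p = 0.719). Fos was at -0.0069, with a 95% confidence interval of -0.78 to 0.77, so that a difference of that size in either direction remains within the error. No member had an unadjusted p under 0.05, whereas 17.1% of all genes did and 0.801% were called. Groups overlapped for all 10, beside 10.8% of all genes whose groups did not. The exact permutation p lay between 0.0857 and 1.0.

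In the libraries with the label G3 mTerc-/-Puma-/- minus Puma-/-, 9 of 10 members were above 0 and 0 passed, with a median of 0.43, beside 0.0092 over all genes. Atf3 was at 1.94 (SE 1.0, adjusted p = 0.645), Nr4a1 at 1.0 (SE 0.663, adjusted p = 0.745) and Egr1, the member below 0, at -0.31 (SE 0.559, adjusted p = 0.926). No member had an unadjusted p under 0.05 in edgeR's test, nor an adjusted one in DESeq2 or limma-voom, beside 8.42% and 0.306% of all genes in edgeR. Groups overlapped for all 10, beside 9.57% of all genes whose groups did not, and the exact permutation p lay between 0.343 and 0.971. Without replicate 1 of G3 mTerc-/-Puma-/- the median was -0.14, so that its direction rested on that library.

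In the libraries with the label G3 mTerc-/-Puma-/- minus G3 mTerc-/-Puma+/+, all 10 members were above 0 and 0 passed. By its labels this comparison is about the loss of Puma, but Bbc3 lay at 13.5 to 17.1 CPM in the former and at 11.8 to 20.8 in the latter, so that it compares the libraries as labelled. The median was 0.51, beside -0.015 over all genes, and the values ran from 0.23 for Jun (SE 0.318) to 1.59 for Nr4a1 (SE 0.668, adjusted p = 0.725). Only Nr4a1 had an unadjusted p under 0.05 in edgeR's test, beside 6.22% of all genes, of which 0.0738% were called, and DESeq2 and limma-voom called 0 of 10. Groups overlapped for all 10, beside 5.56% of all genes whose groups did not, and the exact permutation p lay between 0.229 and 0.743. Leaving out replicate 1 of G3 mTerc-/-Puma-/- gave a median of -0.08, with 8 of 10 members then below 0. With that library Fos had a 95% confidence interval of -0.39 to 1.28.

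The interaction of mTerc and Puma, taken from the labels and so with the same limit on Bbc3, was computed by subtracting G3 mTerc-/-Puma+/+ minus WT from G3 mTerc-/-Puma-/- minus Puma-/-. All 10 members were above 0 with a median of 1.29, beside -0.0060 over all genes, and 0 passed. Atf3 was at 3.94 (SE 1.42, adjusted p = 0.855), Nr4a1 at 2.57 (SE 0.941, adjusted p = 0.871) and Zfp36 at 1.30 (SE 0.470, adjusted p = 0.855). By edgeR, 5 members (Fos, Nr4a1, Atf3, Ier2 and Zfp36) had an unadjusted p under 0.05, beside 4.93% of all genes, of which 0.0527% were called, and DESeq2 and limma-voom called 0. Without replicate 1 of G3 mTerc-/-Puma-/- the median was 0.71, with Egr1 below 0, and without WT replicate 2 it was 1.63.

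**Figure D4:**
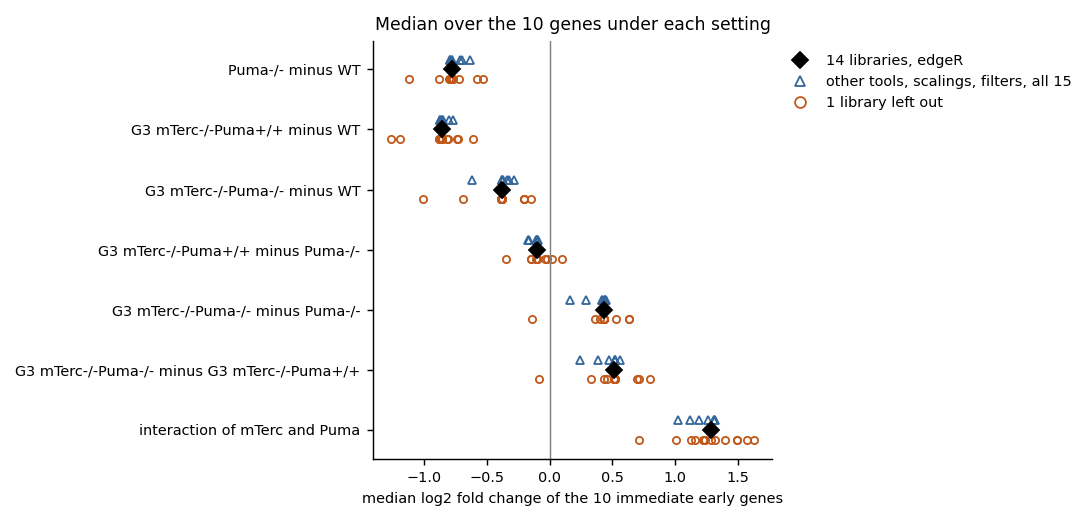
Median log2 fold change of the 10 genes in each of the 7 comparisons (rows) with edgeR on 14 libraries (diamonds), with other tools, scalings, filters or all 15 libraries (triangles) and without each library in turn (circles). The medians against WT stay below 0 in every setting shown, each of which keeps WT replicate 1 or 3, where the members were high. Those of G3 mTerc-/-Puma-/- minus Puma-/- and minus G3 mTerc-/-Puma+/+ cross 0 when replicate 1 of G3 mTerc-/-Puma-/- is left out. That of G3 mTerc-/-Puma+/+ minus Puma-/- lies on either side of 0.

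Related genes were read from companion lists, chosen like the members with earlier results of these data known. Of 25 other immediate early genes, 22 were below 0 in Puma-/- minus WT (median -0.68) and 23 in G3 mTerc-/-Puma+/+ minus WT (median -0.70), and 0 passed in either, beside 12 and 11 with an unadjusted p under 0.05. Of the 23 with a mean of at least 1 CPM, 18 had a rho of at least 0.5 with the mean of the members, among them Klf6 (0.83), Nfkbiz (0.83), Ier5 (0.84) and Nfkbia (0.78). The median rho over the 13040 genes compared was 0.02. Their share at a rho of at least 0.5 was not counted, so that the counts at this cutoff are a description. Myc (-0.32), the growth regulator, Gadd45b (-0.10) and Ccn1 (-0.29) did not follow them. Myc ran from 185 to 270.0 CPM over the 15 libraries. The list was thus high in the same libraries for most but not all of its genes.

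The other AP-1 subunits followed the members less closely. Their median rho was -0.12 over 6 genes, with Jund at 0.75 and Jdp2, which encodes a repressor that pairs with JUN, at -0.49. Jund was at 56.9 to 227 CPM, highest in WT replicate 3, and Batf, a lymphoid partner of JUN, at 17.4 to 27.8. None of the 7 passed in any comparison of edgeR's test, with at most 2 at an unadjusted p under 0.05. Among MAPK phosphatases and ERK feedback genes, 6 of 11 had a rho of at least 0.5, led by Dusp2 (0.84) and Spry2 (0.82). Dusp16, a phosphatase of JNK and p38, was the only gene of the 6 companion lists that passed in edgeR's test, and it was lower in G3 mTerc-/-Puma+/+ (2.86 to 3.51 CPM) than in Puma-/- (5.06 to 7.91), by a fitted log2 difference of -1.11 (SE 0.176, adjusted p = 0.0161), with no overlap between the groups. Its rho with the members was 0.44, and Ddx3y differs between these groups as well.

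Of 18 upstream kinases and factors, among them Mapk3, Srf, Elk1 and Creb1, 0 had a rho of at least 0.5, their median rho was 0.22, and 0 passed in any comparison of edgeR's test, with at most 6 at an unadjusted p under 0.05. Srf ran from 96.4 to 139.8 CPM. Of the Zfp36 family and the AU-rich element binding genes, 1 of 5 had a rho of at least 0.5 (Zfp36l1, 0.55), while Elavl1 was at 0.02, and 0 passed in edgeR's test, with at most 2 at an unadjusted p under 0.05. RNA levels of kinases do not report their activity.

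**Figure D5:**
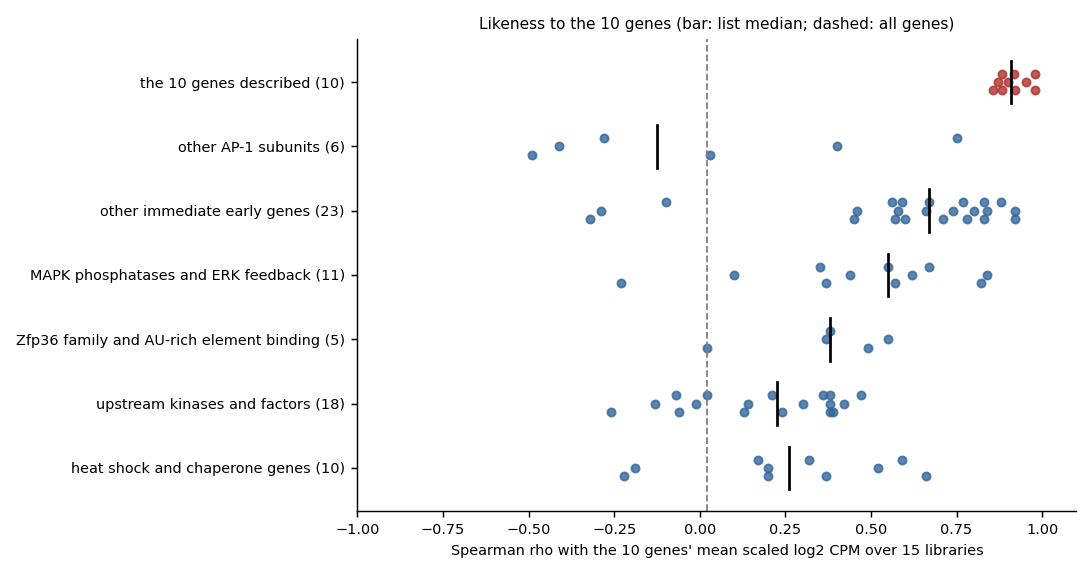
Spearman's rho of each gene with the mean scaled level of the 10 immediate early genes over 15 libraries (horizontal axis), with a row for each list, a point for each gene with a mean of at least 1 CPM, a bar for the list median and a dashed line for the median of all genes. Other immediate early genes have a median of 0.67 and upstream kinases and factors one of 0.22, and the 10 genes in the first row are part of the mean they are set against.

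Some measures moved with the level of the members in some groups, and their part in it was not tested. Among heat shock and chaperone genes, 3 of 10 had a rho of at least 0.5 (Hspa1a, Hspa1b and Dnajb1). Hspa1a, the inducible HSP70 gene, was at 86.2, 14.8 and 75.6 CPM in WT and at 27.1, 21.2, 60.9 and 63.1 in Puma-/-, where replicate 2, with the highest share of counts on the members, was lowest. Hspa1a in G3 mTerc-/-Puma+/+ was at 21.1, 144, 65.5 and 72.4 CPM, with replicates 3 and 4 near the high WT libraries although the members were low there. It was at 56.1, 4.73, 13 and 29.3 CPM in the libraries with the label G3 mTerc-/-Puma-/-, in the same order of replicates 1 and 2 as the members. Hsp90ab1 and Hspa8, the constitutive chaperones, had a rho of 0.37 and 0.20. The median over the 11 listed was 0.19 in G3 mTerc-/-Puma+/+ minus WT, where the members had -0.86, and 0 passed in any comparison of edgeR's test, with at most 5 at an unadjusted p under 0.05.

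In bulk RNA, fewer cells of a type and less RNA per cell cannot be told apart. The 5 mast cell and basophil markers summed to 1937, 3438 and 1661 CPM in WT, to 2397 to 3861 in Puma-/-, to 1252 to 2304 in G3 mTerc-/-Puma+/+ and to 956 to 2542 in the libraries with the label G3 mTerc-/-Puma-/-. Stroma and endothelium markers (6 genes, among them Col1a1 and Cxcl12) summed to 702, 1429 and 497 CPM in WT, to 494 to 1053 in Puma-/-, to 2855, 452, 839.9 and 527 in G3 mTerc-/-Puma+/+, and to 789, 2197, 1420.5 and 558 in the libraries with the label G3 mTerc-/-Puma-/-. WT replicate 2, G3 mTerc-/-Puma+/+ replicate 1 and replicate 2 of G3 mTerc-/-Puma-/-, where the members took the lowest share of counts in their groups, were thus those with the highest stromal sums in their groups, whereas in Puma-/- replicate 1 had the highest sum and replicate 4 the lowest share of counts on the members. Col1a1, Col1a2 and Cxcl12 followed the sum in the former libraries, and the endothelial genes of the list did not as a set. Cdh5 was lowest of its group in WT replicate 2 (1.8 CPM) and in replicate 2 of G3 mTerc-/-Puma-/- (5.92). It was highest in G3 mTerc-/-Puma+/+ replicate 1 (3.64), and Pecam1 was lowest in replicate 2 of G3 mTerc-/-Puma-/- (44.1). Megakaryocyte markers (5 genes) summed to 211, 262 and 122 CPM in WT, to 291 to 474 in Puma-/-, to 145 to 196 in G3 mTerc-/-Puma+/+ and to 113 to 168 in the libraries with the label G3 mTerc-/-Puma-/-. In edgeR's test 3 of the 5 were lower in G3 mTerc-/-Puma+/+ than in Puma-/-, as were 3 in the libraries with the label G3 mTerc-/-Puma-/-, and all 5 had an unadjusted p under 0.05 in Puma-/- minus WT, with 0 called. B lymphoid markers (7 genes) summed to 37.5 to 50.5 CPM in G3 mTerc-/-Puma+/+, to 60.4 to 121 in the libraries with the label G3 mTerc-/-Puma-/- and to 57.5 to 72.3 in WT and Puma-/-. Of these, 2 were called higher in G3 mTerc-/-Puma-/- minus G3 mTerc-/-Puma+/+, 1 higher in G3 mTerc-/-Puma-/- minus Puma-/- and 1 lower in G3 mTerc-/-Puma+/+ minus Puma-/-. T and NK markers (6 genes) lay between 23.1 and 152 CPM and resident macrophage markers (6 genes) between 64.4 and 274, and no marker of the 12 lists was at 0 in all libraries.

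Stem and progenitor markers (6 genes, Kit and Cd34 among them), which the lineage-negative label implies, summed to 299 to 453 CPM and differed little between WT replicate 2 (395) and replicates 1 and 3 (387 and 365). Early neutrophil markers such as Mpo and Elane summed to 12932 to 27451 CPM, the highest sum of the 12 lists in every library. Mitochondrial genes held 8.94%, 7.82% and 8.47% of the counts in WT and 6.65% in replicate 1 of those with the label G3 mTerc-/-Puma-/-, so that the 3 libraries with the highest levels of the members were not set apart by this share. Xist was at 418 CPM in WT replicate 1 and at 1.73 in WT replicate 3, both of which held high levels of the members. Ddx3y was at 21.3 and 43.2 CPM in these libraries, so that WT replicate 1 held both transcripts. WT replicate 2, where the members were low, held both as well (212 and 26.5 CPM), and the part of sex was not tested.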

How the data were processed

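RNA of lineage-negative marrow cells was sequenced from poly(A) stranded TruSeq libraries, 15 in all. The deposited values are raw counts per Ensembl gene, which the authors made from reads trimmed with Trimmomatic 0.38 and aligned to GRCm38 (mm10) with STAR 2.5.2b. The counting tool's strand setting and annotation release are not given in the sources used here. Symbols came from GENCODE vM21, and identifiers without one held 0.0643% of the counts. CPM were computed here with TMM factors.

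Genes were tested with edgeR 4.0.16 (R 4.3.3) by the quasi-likelihood test on 14 libraries, all 4 genotypes in 1 fit, after filterByExpr, with Benjamini-Hochberg adjustment over 18983 genes and a threshold of 0.05. The script was tested on simulated data. DESeq2 1.42.0, limma 3.58.1 (voom), other scalings, no filter, a replicate block, all 15 libraries, the compared groups alone and leaving out each library were alternatives. Levels were also compared by exact permutation tests (scipy 1.17.1) in a family of 60, where the lowest adjusted p was 0.706. Likeness is Spearman's rho with the mean of the members' scaled log2 CPM (prior count 2). Replicate libraries of a genotype differed beyond sampling noise (chi-square per gene at least 38.3).

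The members and lists were chosen with earlier results of these data known. Named by rule were the 10 members, up to 3 genes per companion list, direction and comparison that passed the test without overlap, the 8 genes most like the members, and Bbc3, Terc, Xist and Ddx3y. Other companion genes and the markers were named after their values were seen.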

Additional observations from a re-analysis of the deposited data

Results flagged for a closer look

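A library stood far from the others of its genotype in 2 of 33 sets of levels examined with Dixon's criterion, which marks about 1 in 20 by chance. For this the levels of the members were taken as log2 CPM, while CPM are printed below. Fosb was at 732 CPM in replicate 1 of the libraries with the label G3 mTerc-/-Puma-/-, beside 193, 196 and 211 CPM in the other 3. Nr4a1 was at 57.1 CPM in Puma-/- replicate 2, beside 29.1 to 32.1 CPM in the other 3. On the log2 scale other wide gaps in CPM were not marked. Among them were Nr4a1 at 167 CPM in replicate 1 of those with the label G3 mTerc-/-Puma-/-, beside 19.2 to 32.3, and Atf3 at 58.4 in G3 mTerc-/-Puma+/+ replicate 2, beside 5.36 to 10.4. WT, with 3 libraries, was not examined in this way.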

How the results depend on the processing

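The number of members called was 0 in every comparison under all alternatives run. Of 1530 fold changes of single members under alternatives, 40 changed sign, 33 of them on leaving out 1 library, and none passed the threshold. The limits are the 3 or 4 libraries per genotype, the spread between them and, for G3 mTerc-/-Puma-/-, replicate 1. In WT they are replicates 1 and 3, which no setting left out together. The cause of the changes below was not tested.

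Leaving out each library in turn gave these ranges of log2 fold change where a sign changed. In Puma-/- minus WT, Egr1 ran from -0.72 to 0.15, and in G3 mTerc-/-Puma-/- minus WT, Nr4a1 ran from -1.38 to 0.45. In G3 mTerc-/-Puma+/+ minus Puma-/-, Fos ran from -0.33 to 0.15, Fosb from -0.73 to 0.18, Jun from -0.36 to 0.11, Atf3 from -0.56 to 1.06, Ier2 from -0.17 to 0.096 and Dusp1 from -0.35 to 0.41. In G3 mTerc-/-Puma-/- minus Puma-/-, Fos ran from -0.072 to 0.64, Fosb from -0.42 to 0.80, Jun from -0.16 to 0.31, Junb from -0.25 to 0.27, Egr1 from -1.34 to 0.093, Nr4a1 from -0.41 to 1.43, Dusp1 from -0.13 to 0.82 and Zfp36 from -0.058 to 0.63. In G3 mTerc-/-Puma-/- minus G3 mTerc-/-Puma+/+, Fos ran from -0.066 to 0.77, Fosb from -0.29 to 1.21, Jun from -0.093 to 0.52, Junb from -0.0027 to 0.52, Egr1 from -0.40 to 0.99, Atf3 from -0.76 to 2.5, Ier2 from -0.0049 to 0.46 and Dusp1 from -0.32 to 0.90, each lowest without replicate 1 of G3 mTerc-/-Puma-/-. In the interaction, Egr1 ran from -0.081 to 1.37.

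Nr4a1 in G3 mTerc-/-Puma-/- minus WT was at -0.27 with all 15 libraries, at -0.13 with limma-voom and at -0.077 with the replicate block. With all 15 libraries, Jun was at -0.065 and Junb at -0.077 in G3 mTerc-/-Puma-/- minus Puma-/-, and Jun was at -0.0002 in G3 mTerc-/-Puma-/- minus G3 mTerc-/-Puma+/+. Ier2 in G3 mTerc-/-Puma+/+ minus Puma-/- was at -0.032 with library size alone. The replicate block called 0 members, and same-numbered libraries did not deviate together (median r 0.020 over 18 pairs, 3 of 14 libraries closest to their own number).

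The number of all genes called moved more. In the order in which the comparisons were described, edgeR called 15, 7, 12, 152, 58, 14 and 10 genes, DESeq2 136, 46, 91, 996, 287, 172 and 64, the replicate block 12, 6, 12, 43, 21, 13 and 10, and edgeR with all 15 libraries 13, 4, 8, 24, 59, 6 and 9. limma-voom called 5 in the interaction. Leaving out 1 library gave 11 to 28, 1 to 8, 1 to 16, 18 to 228, 18 to 93, 4 to 38 and 5 to 11.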
